A study of Mus musculus with 6 samples.

Results

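The glycolytic and hypoxia-responsive genes followed here are a set of 37 mouse genes chosen by name, with earlier results of these data known. They were read from the array probes that carry their symbol alone. They comprise 16 genes of glucose uptake and glycolysis, 5 switches of glycolytic flux and lactate handling, 3 genes of oxygen sensing and 13 other targets of the hypoxia response. Of the 37, 34 had a probe among the 17711 genes that probes name, and 30 were above background on at least 1 array and were tested among 8948 genes. Gpi1, Pgam1 and Eno1 had no probe under these symbols, and Pgk1, Bnip3, Hif1a and Higd1a were not above background on any array. A further 5 were above background on fewer than 6 arrays, namely Pfkfb3 on 5, Slc16a3 and P4ha2 on 4, Ddit4 on 2 and Adm on 1.

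The mucosa of the colon was taken from FVB/N6 mice aged 8 weeks and measured on 6 Illumina bead arrays, each holding the pooled RNA of 5 mice. Knockout animals lacking Foxo4 (Foxo4_KO) and wild-type animals (WT) each gave 3 pools: one from untreated mice, one from mice sampled on day 2 after an enema of 50% ethanol, and one from mice sampled on day 2 after trinitrobenzenesulfonic acid (TNBS, labelled 250 mg) in the same ethanol. TNBS is a hapten that, given with ethanol to breach the mucosal barrier, is used to induce colitis. The labels do not state the kind of deletion, the sex of the mice or the quantity to which the TNBS amount refers. Every group was 1 pool, so a difference between 2 pools has no replicate check, and fewer cells of a type cannot be told apart from less RNA per cell.

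Glycolysis breaks glucose down to pyruvate in the cytosol, and hypoxia-inducible factor (HIF) raises the transcription of many of its enzymes when oxygen is scarce. In the presence of oxygen, prolyl hydroxylases of the Egln family mark the alpha subunit of HIF for destruction. When oxygen is lacking, HIF binds the sequence ACGTG or GCGTG near its targets, which shift cells towards lactate, vessel growth and acid balance. The surface epithelium of the colon borders an almost oxygen-free lumen, and HIF targets are active there also in health. In human cells FOXO4 has been reported to lower HIF1A.

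Mean signal per array ran between 225.3 and 276.7, and between 11181 and 14363 probes were above background. The TNBS pool of Foxo4_KO mice stood apart, with correlations of 0.949 to 0.97 to the other 5 arrays, against 0.974 to 0.986 for every other pair. On none of the 6 arrays was Foxo4 itself above background; its normalized log2 signal was 4.59, 4.70 and 4.42 in the Foxo4_KO and 4.75, 4.63 and 4.59 in the WT pools (untreated, ethanol, TNBS), so the genotype labels could not be checked from it. Colonocyte genes, 10 of 12 tested, averaged 11.56, 11.46 and 11.11 (log2) in the Foxo4_KO pools and 11.49, 11.47 and 11.52 in the WT pools, in the same order. The ileal and Paneth cell genes Fabp6 and Defa24, chosen after their values were seen, stood at 12.18 and 11.21 in the Foxo4_KO and 11.78 and 9.07 in the WT TNBS pool. Without TNBS both genes were dimmer, yet the knockout pool was again the brighter one of each pair. Fabp6 was at 8.48 against 6.12 without treatment and at 7.75 against 6.81 after ethanol alone. For Defa24 these pairs were 6.27 against 4.82 and 5.76 against 4.79, with neither WT value above background.

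Promoters of members were read from RefSeq (mouse build GRCm38.p6) as the 250 bases before and 50 bases after each gene start, 35 of the 37 genes having at least 1 and 53 promoters being listed. The list includes promoters of members that were not tested. Either ACGTG or GCGTG, searched on both strands, occurred in 42 of these 53 promoters (79.2%), against 43.8% of all 32851 promoters and 60.2% of the promoters of tested genes. ACGTG alone was held by 54.7% of members' promoters, by 19.6% of all and by 24.9% of those of tested genes. CACGTG, the E-box, contains ACGTG on both strands and was held by 9.43%, against 7.15% of all and 9.63% of those of tested genes. A match describes the letters only. The promoters of 5 members are shown. Ankrd37, Pdk1 and Car9 were the members with the lowest p-values for genotype, and Eno3 had the largest difference between 2 pools. Ldha, which differed little between pools, carried the most matches of the 5. Capitals mark every ACGTG and GCGTG and their reverse complements CACGT and CACGC.
Ankrd37 (chr8:45999801-46000100, minus strand): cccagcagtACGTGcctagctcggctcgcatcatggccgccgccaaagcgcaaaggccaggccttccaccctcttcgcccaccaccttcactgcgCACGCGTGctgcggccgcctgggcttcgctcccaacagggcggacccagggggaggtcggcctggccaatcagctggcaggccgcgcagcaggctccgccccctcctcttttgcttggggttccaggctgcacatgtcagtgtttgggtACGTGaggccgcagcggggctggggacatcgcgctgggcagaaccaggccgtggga
Pdk1 (chr2:71872974-71873273, plus strand): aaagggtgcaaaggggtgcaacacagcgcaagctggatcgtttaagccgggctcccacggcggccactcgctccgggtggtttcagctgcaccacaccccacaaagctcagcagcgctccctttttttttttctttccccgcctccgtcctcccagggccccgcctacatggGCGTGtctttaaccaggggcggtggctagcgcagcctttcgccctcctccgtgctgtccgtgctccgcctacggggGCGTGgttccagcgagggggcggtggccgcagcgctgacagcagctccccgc
Car9 (chr4:43506776-43507075, plus strand): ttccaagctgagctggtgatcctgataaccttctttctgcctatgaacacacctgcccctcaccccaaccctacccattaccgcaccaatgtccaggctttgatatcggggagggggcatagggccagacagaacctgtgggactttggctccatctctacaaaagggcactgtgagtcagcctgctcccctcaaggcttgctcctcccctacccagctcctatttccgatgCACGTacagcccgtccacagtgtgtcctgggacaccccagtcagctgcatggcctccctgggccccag
Ldha (chr7:46845554-46845853, plus strand): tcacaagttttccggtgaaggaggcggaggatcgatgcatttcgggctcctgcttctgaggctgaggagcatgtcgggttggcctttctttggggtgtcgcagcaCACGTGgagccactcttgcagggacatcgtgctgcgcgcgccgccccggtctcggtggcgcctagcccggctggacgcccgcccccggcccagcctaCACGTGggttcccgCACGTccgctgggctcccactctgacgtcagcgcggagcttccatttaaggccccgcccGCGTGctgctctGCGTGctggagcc
Eno3 (chr11:70656926-70657225, plus strand): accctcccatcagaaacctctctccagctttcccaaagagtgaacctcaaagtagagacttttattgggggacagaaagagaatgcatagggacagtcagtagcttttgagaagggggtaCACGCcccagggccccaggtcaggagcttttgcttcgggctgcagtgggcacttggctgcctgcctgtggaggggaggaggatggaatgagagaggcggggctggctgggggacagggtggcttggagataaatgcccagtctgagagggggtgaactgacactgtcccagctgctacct
Ankrd37 held 4 matches, 2 of them ACGTG, and Ldha held 7, 5 of them ACGTG, with each CACGTG counted on both strands. Pdk1 held 2 GCGTG, Car9 1 ACGTG and Eno3 1 GCGTG. Of the 2 starts listed for Pdk1 and for Ldha, the upstream one is shown.

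The first comparison asked how the members differ between Foxo4_KO and WT mucosa over the 3 treatments. Most stood slightly lower in Foxo4_KO, and none passed the test. The fitted difference was below 0 for 23 of 30 members, against 56.1% of all genes, and the median member stood at -0.14 (log2), against -0.03 for all genes. Limma called 0 of 30 members at an adjusted p of 0.05, where it called 0.134% of all 8948 genes (12 genes). At an unadjusted p under 0.05 there were 3 members, Ankrd37, Car9 and Pdk1, where 10.4% of all genes passed that level.

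In all 3 pairs of pools 12 members were lower in Foxo4_KO (40.0% of those tested, against 18.6% of all genes), and 0 were higher in all 3 pairs (against 13.3%). Those 12 were Ankrd37, Car9, Vegfa, Bnip3l, P4ha2, Pdk1, Pfkfb4, Slc16a3, Gapdh, Aldoc, Pfkm and Pfkp. Because the members were chosen with earlier results of these data known, these shares describe the set and test nothing. Signals of all 3 Foxo4_KO pools lay below those of all 3 WT pools for 6 members, Aldoc, Bnip3l, Pdk1, Pfkp, Slc16a3 and Vegfa, where 8.04% of all genes did so, and the opposite held for 0 members and 5.93% of all genes. Scaling of the arrays bears on these counts. With median scaling in place of quantile normalization the median of all genes moved to 0.09, and 5 members (Adm, Ankrd37, Car9, Gapdh and Pdk1) were lower in all 3 pairs, against 5.99% of all genes, with 0 higher against 16.3%. Among the 25 members above background on all 6 arrays, 10 were lower in all 3 pairs, against 19.6% of such genes. Relative to all genes the members' median was -0.11 with quantile normalization and -0.13 with median scaling.

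**Figure D1:**
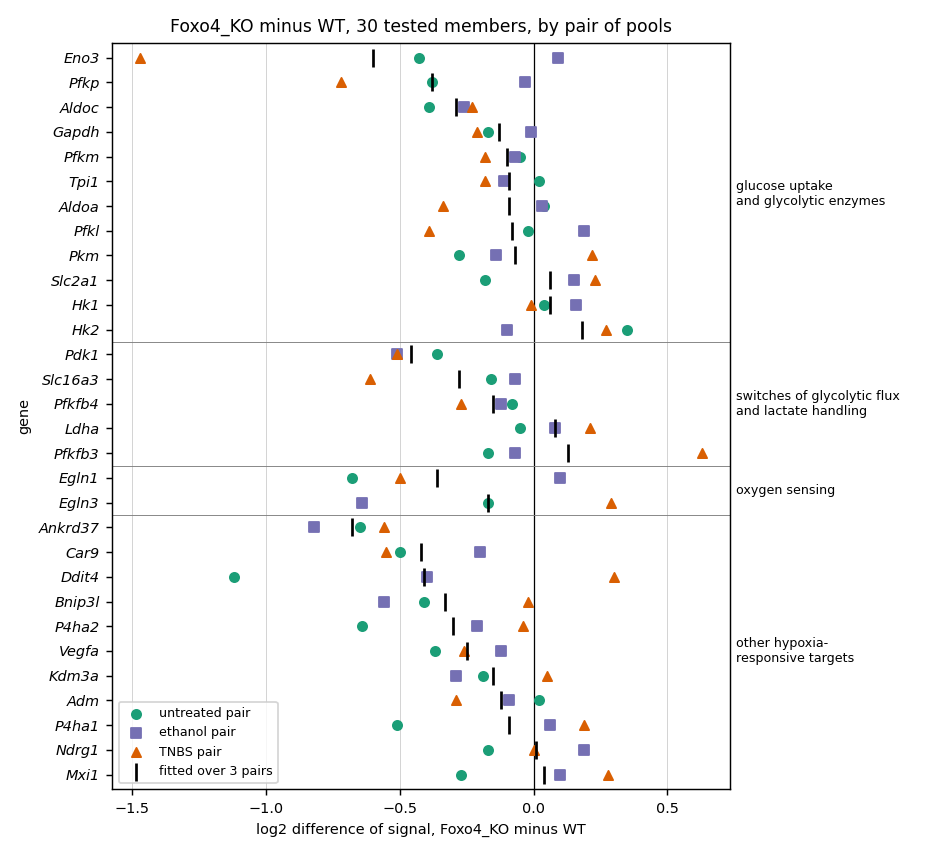
Log2 difference of signal, Foxo4_KO minus WT, for the 30 tested members in the untreated (circles), ethanol (squares) and TNBS (triangles) pairs of pools, with the fitted difference over the 3 pairs as a vertical bar and the members grouped by role. Points of 12 members lie left of 0 in all 3 pairs, and Eno3 in the TNBS pair, at -1.47, lies farthest from 0.

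Among the hypoxia-responsive targets outside glycolysis, 11 of 13 were tested and 9 of these 11 had a fitted difference below 0, with a median of -0.25. Ankrd37, a small ankyrin repeat protein induced by HIF, had a log2 signal of 7.84, 7.41 and 7.08 in Foxo4_KO pools (untreated, ethanol and TNBS, as in every set of 3 values), against 8.49, 8.23 and 7.65 in WT pools. Each Foxo4_KO pool was below the WT pool of the same treatment, while the untreated Foxo4_KO pool was above the TNBS WT pool. Its fitted difference was -0.68 (SE 0.13, limma adjusted p = 0.154), the lowest adjusted p of any member, and a ratio of 1.6 in favour of WT.

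Car9, a membrane carbonic anhydrase with a part in the acid balance of hypoxic cells, had 6.32, 6.59 and 5.93 in the Foxo4_KO pools, against 6.82, 6.79 and 6.48 in the WT pools. The Foxo4_KO value was the lower one under each treatment, with some overlap between treatments. The fitted difference was -0.42 (SE 0.14, limma adjusted p = 0.386). A dimmer probe for Car9, above background on 1 array, read 5.29, 5.24 and 5.06 against 5.86, 5.40 and 5.45, in the same direction.

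Vegfa, the vascular endothelial growth factor, had 8.97, 8.94 and 8.80 in the Foxo4_KO pools, against 9.34, 9.05 and 9.06 in the WT pools, and its groups did not overlap. The fitted difference of -0.25 (SE 0.13) had a limma adjusted p of 0.592. Bnip3l, a receptor for the removal of mitochondria, had 9.33, 9.09 and 9.33 against 9.75, 9.64 and 9.34. Its untreated and ethanol pairs were apart by -0.41 and -0.56, while the TNBS pair differed by -0.02 only. The fit gave -0.33 (SE 0.15, adjusted p = 0.545).

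Some of these targets were apart mainly in the untreated pair, or were too dim to rank. P4ha2, an alpha subunit of the collagen prolyl hydroxylase, had 5.41 in the untreated Foxo4_KO pool, where it was not well above background, against 6.05 in the untreated WT pool, at least 1.16-fold lower. Its ethanol and TNBS pairs read 5.93 and 5.81 in Foxo4_KO against 6.14 and 5.85 in WT. Ddit4, an inhibitor of mTOR signalling, had 4.61, 5.23 and 5.81 in the Foxo4_KO pools, against 5.73, 5.63 and 5.51 in the WT pools. It was above background only in the untreated WT and the TNBS Foxo4_KO pool, and its fitted difference of -0.41 (SE 0.27, adjusted p = 0.669) was -0.05 without either untreated pool and -0.76 without either TNBS pool.

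P4ha1, the other alpha subunit, had 6.63, 6.96 and 7.09 in the Foxo4_KO pools and 7.14, 6.90 and 6.89 in the WT pools, lower in Foxo4_KO only in the untreated pair. Kdm3a, a histone demethylase, was fitted at -0.15 (SE 0.14), Adm, the vasodilator peptide adrenomedullin, at -0.12 (SE 0.13), Mxi1, a repressor that opposes Myc, at 0.04 (SE 0.15), and Ndrg1, a stress-induced gene of differentiated epithelium, at 0.01 (SE 0.14). None of these 5 genes had a limma adjusted p under 0.768 for genotype. A dimmer Kdm3a probe, above background on all 6 arrays, had 7.03, 6.76 and 6.53 in the Foxo4_KO pools, against 7.38, 7.34 and 6.91 in the WT pools. It was lower in Foxo4_KO in each pair, whereas the brighter probe was not lower after TNBS (8.67 against 8.62).

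**Figure D2:**
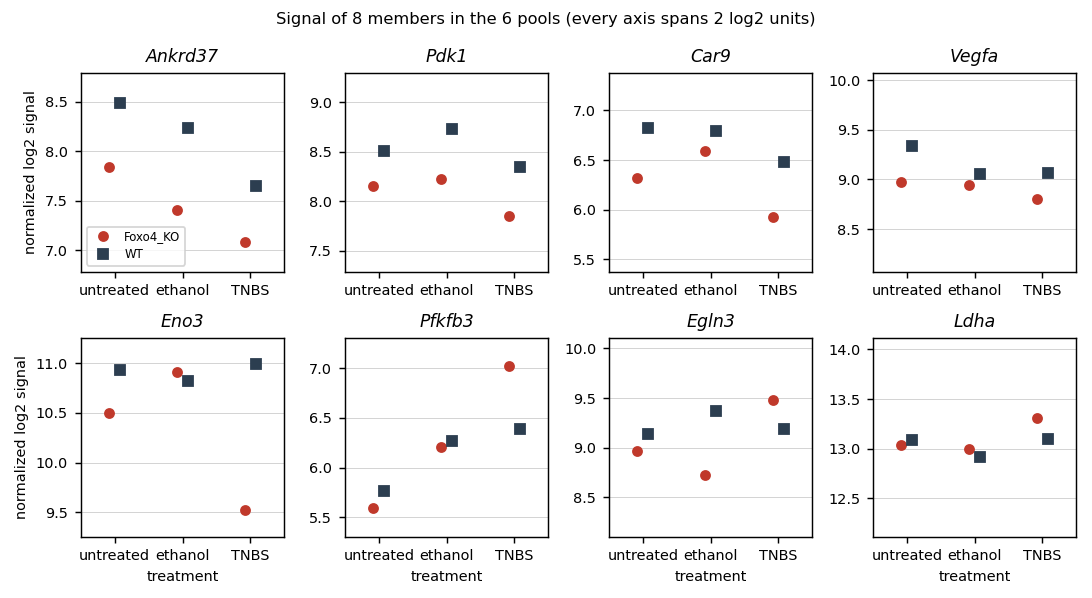
Normalized log2 signal of 8 members by treatment (untreated, ethanol, TNBS) and genotype, Foxo4_KO as circles and WT as squares, 1 pool per point, every vertical axis spanning 2 log2 units. Ankrd37, Pdk1, Car9 and Vegfa are lower in Foxo4_KO under each treatment, whereas Eno3 and Pfkfb3 are apart mainly in the TNBS pools, at 9.52 and 7.02 in Foxo4_KO against 10.99 and 6.39 in WT.

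Genes that steer glycolytic flux were split. Pdk1, the kinase that switches off pyruvate dehydrogenase and so keeps pyruvate out of mitochondria, had 8.15, 8.22 and 7.85 in the Foxo4_KO pools, against 8.51, 8.73 and 8.35 in the WT pools. Every Foxo4_KO pool was below every WT pool. The fitted difference was -0.46 (SE 0.12, limma adjusted p = 0.304), and the 3 pairs stood at -0.36, -0.51 and -0.51.

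Slc16a3, the transporter that exports lactate from glycolytic cells, had 5.68, 5.77 and 5.34 in the Foxo4_KO pools, against 5.83, 5.84 and 5.95 in the WT pools. It was dim throughout, and in the untreated and the TNBS pool of Foxo4_KO mice it was not well above background, so that the TNBS pair gives a fold of at least 1.49 lower. Its other probe, above background on 2 arrays, had 5.45, 5.28 and 5.62 in the Foxo4_KO pools, against 5.68, 5.41 and 5.48 in the WT pools, and so went the other way after TNBS. The enzymes Pfkfb3 and Pfkfb4 make and break the sugar bisphosphate that activates phosphofructokinase. Pfkfb4 was fitted at -0.15 (SE 0.13) and Pfkfb3 at 0.13 (SE 0.19). Ldha, which turns pyruvate into lactate, had 13.04, 13 and 13.31 in the Foxo4_KO pools, against 13.09, 12.92 and 13.10 in the WT pools, fitted at 0.08 (SE 0.13, adjusted p = 0.882).

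Of the oxygen sensors, Egln1, the main hydroxylase acting on HIF, had 6.85, 7.45 and 6.73 in the Foxo4_KO pools, against 7.53, 7.35 and 7.23 in the WT pools. It was lower in the untreated pair (1.6-fold) and in the TNBS pair, but not in the ethanol pair, and the fit gave -0.36 (SE 0.18, limma adjusted p = 0.587). A dimmer Egln1 probe, above background on 4 arrays, had 5.34, 6.11 and 5.51 against 5.73, 6.17 and 5.74. Egln3, a hydroxylase that HIF itself induces, had 8.97, 8.73 and 9.48 against 9.14, 9.37 and 9.19. Its ethanol pair was 1.55-fold lower in Foxo4_KO, while its TNBS pair was the other way round by 0.29 on the log2 scale. A dimmer Egln3 probe, above background on all 6 arrays, had 6.44, 6.13 and 6.08 in the Foxo4_KO pools, against 6.37, 6.31 and 6.24 in the WT pools, and did not share the high value in the Foxo4_KO TNBS pool.

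Glucose uptake and the glycolytic enzymes had the median nearest to 0 of the 4 roles. With 12 of 16 genes tested, it was -0.09 and the range was -0.60 to 0.18. Slc2a1, the glucose transporter of most cells, had 11.51, 11.44 and 11.13 in the Foxo4_KO pools, against 11.70, 11.29 and 10.90 in the WT pools, fitted at 0.06 (SE 0.14). Hk1 and Hk2, the hexokinases that trap glucose in the cell, were fitted at 0.06 (SE 0.13) and 0.18 (SE 0.15), and Hk2 had the highest fitted value of the 30 members.

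Eno3, the enolase form typical of muscle, made the exception. Its signal was 10.50, 10.91 and 9.52 in the Foxo4_KO pools, against 10.93, 10.82 and 10.99 in the WT pools. The Foxo4_KO TNBS pool was 2.77-fold below the WT TNBS pool, whereas the other 5 pools were close together. The fit over the 3 pairs gave -0.60 (SE 0.29, limma adjusted p = 0.567), with -0.17 without either TNBS pool and -0.95 without either ethanol pool. Skeletal muscle markers, 5 of 10 tested, averaged 5.23 (log2) in the Foxo4_KO and 6.84 in the WT TNBS pool, and 7.34 in the Foxo4_KO and 5.40 in the WT ethanol pool, where Eno3 was nearly equal. Ckm and Myh4 of this list were not above background on any array. The part of muscle in the Eno3 value was not tested.

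Pfkp, the platelet-type phosphofructokinase, went the same way, with 8.09, 8.33 and 7.63 in the Foxo4_KO pools, against 8.47, 8.35 and 8.35 in the WT pools. Its TNBS pair was 1.65-fold lower in Foxo4_KO, and the fit gave -0.38 (SE 0.17, limma adjusted p = 0.533). In the TNBS pair a dim Pfkp probe, above background on 1 array, was higher in Foxo4_KO, at 5.56 against 4.77 in WT. Another Pfkp probe, above background on all arrays, read 6.19 in the Foxo4_KO and 7.26 in the WT TNBS pool, lower in Foxo4_KO. Hk1 showed such a gap in its second probe, at 6.42 in the Foxo4_KO and 7.31 in the WT TNBS pool, but not in its brightest probe, at 10.96 and 10.97.

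Aldoc, an aldolase known best from brain, had 7.51, 7.54 and 7.61 in the Foxo4_KO pools, against 7.90, 7.80 and 7.84 in the WT pools. The groups did not overlap and varied little within a genotype, and the fit gave -0.29 (SE 0.13, limma adjusted p = 0.505). The other enzymes were fitted within 0.13 of 0 on the log2 scale: Gapdh at -0.13, Pfkm at -0.10, Tpi1 at -0.09, Aldoa at -0.09, Pfkl at -0.08 and Pkm at -0.07. Gapdh had 2 more probes with no match in the unnormalized data, which are read from the authors' normalized values. One had 12.65, 12.75 and 12.78 in the Foxo4_KO pools, against 12.54, 12.78 and 12.83 in the WT pools, and the other had 13.80, 13.77 and 13.58 against 13.72, 13.87 and 13.95. Neither was lower in all 3 pairs.

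Counted by single pairs of pools, few members were at least 1.5-fold apart. In the untreated pair 0 of 29 members were higher in Foxo4_KO, against 3.75% of all genes, and 4 were lower (Ankrd37, Ddit4, Egln1 and P4ha2, dim values counted as measured), against 4.16%. For ethanol, 0 of 28 members were higher, against 7.67%, and 2 were lower (Ankrd37 by 1.76-fold and Egln3), against 2.92%. After TNBS 1 of 30 was higher (Pfkfb3 by 1.54-fold), against 10.9%. There 3 were lower (Eno3, Pfkp and Slc16a3, dim values counted as measured), against 5.84%. Just under this size in the TNBS pair were Ankrd37, 1.48-fold lower, Car9, 1.47-fold lower, and Egln1 and Pdk1, each 1.42-fold lower.

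**Figure D3:**
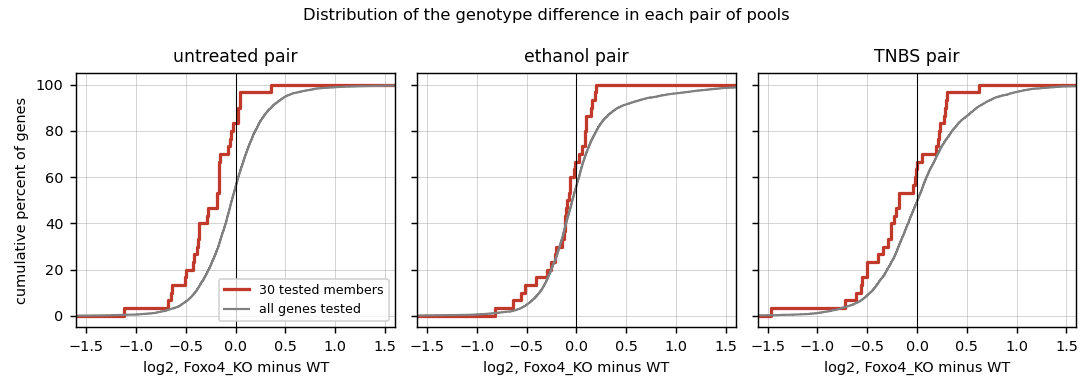
Cumulative percent of genes (vertical) by log2 difference, Foxo4_KO minus WT (horizontal), in the untreated, ethanol and TNBS pairs, for the 30 tested members (thick line) and all 8948 tested genes (thin line). The members' line crosses 50% left of that of all genes in each panel, at medians of -0.19, -0.08 and -0.18 against -0.04, -0.04 and 0.01.

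The second comparison asked how the members respond to TNBS relative to its vehicle. Responses were small and in both directions: the median member stood at -0.12 (log2), against 0.01 for all genes, and 18 of 30 were below 0, against 48.3%. Limma called 0 of 30 members, where it called 0.179% of all genes (16 genes). At an unadjusted p under 0.05 there were 3 members, again Ankrd37, Car9 and Pdk1, where 6.28% of all genes passed. Genotype and treatment differences were read from the same 6 pools, and the ethanol pools enter both treatment comparisons. The ileal and Paneth cell genes given above were far higher in the TNBS pools. They were also higher in Foxo4_KO than in WT under each treatment. What part such tissue has in the members' values was not tested, for genotype or for TNBS.

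In both genotypes 13 members were lower after TNBS (43.3%, against 25.6% of all genes) and 7 were higher (23.3%, against 27.5%). The 13 were Ankrd37, Car9, Kdm3a, Ndrg1, P4ha2, Egln1, Pdk1, Slc2a1, Hk1, Gapdh, Pfkl, Pfkm and Pfkp, and the 7 were Adm, Mxi1, Ldha, Pfkfb3, Pfkfb4, Aldoc and Tpi1. Ankrd37 stood at -0.46 (SE 0.16), Car9 at -0.48 (SE 0.17), Pdk1 at -0.38 (SE 0.15) and Slc2a1 at -0.36 (SE 0.17), all with limma adjusted p of 0.771 or above. Among these 4 the Foxo4_KO and WT responses were -0.33 and -0.58 for Ankrd37, -0.66 and -0.31 for Car9, -0.37 and -0.38 for Pdk1, and -0.32 and -0.39 for Slc2a1. The dimmer Car9 probe, above background on 1 array, read 5.06 and 5.24 in the TNBS and ethanol pools of Foxo4_KO mice. In those of WT mice it read 5.45 and 5.40, not lower with TNBS, and the mean of probes put the fitted Car9 response at -0.27. With median scaling the median of all genes moved to 0.18 and that of the members to 0.07, a gap of -0.11, against -0.13 with quantile normalization.

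Pfkfb3 had the highest fitted response, at 0.47 (SE 0.23, limma adjusted p = 0.789). Its log2 signal in the TNBS and ethanol pools was 7.02 and 6.21 in Foxo4_KO mice and 6.39 and 6.27 in WT mice, 1.76-fold higher with TNBS in Foxo4_KO. The response was 0.09 without the Foxo4_KO TNBS pool, 0.32 without the Foxo4_KO ethanol pool and 0.84 without the WT TNBS pool. Egln1 was fitted at -0.42 (SE 0.22, adjusted p = 0.805), with responses of -0.71 in Foxo4_KO and -0.12 in WT, and at -0.07 without the Foxo4_KO and -0.76 without the WT ethanol pool. The dimmer Egln1 probe did not show so wide a gap between genotypes. It read 5.51 and 6.11 in the TNBS and ethanol pools of Foxo4_KO mice and 5.74 and 6.17 in those of WT mice. Neutrophil markers, 7 of 10 tested, averaged 8.70 in the Foxo4_KO TNBS pool, against 6.41 in the WT TNBS pool and 5.04 and 6.12 in the Foxo4_KO and WT ethanol pools. S100a8, a defining gene of the list, read 11.25 in the Foxo4_KO and 7.98 in the WT TNBS pool, and 4.68 and 7.67 in the ethanol pools. Csf3r, above background on 1 array, read 5.57 in the Foxo4_KO and 5.07 in the WT TNBS pool. Cxcr2, Ngp and Camp of this list were not above background on any array. The part of neutrophils in the Pfkfb3 value was not tested.

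The responses were wider in Foxo4_KO than in WT. At least 1.5-fold apart in Foxo4_KO were 2 members higher with TNBS (Egln3 by 1.68-fold and Pfkfb3), against 9.28% of all genes, and 5 lower (Eno3 by 2.61-fold, Egln1 by 1.64-fold, Pfkp by 1.63-fold, Car9 by 1.58-fold and Pfkl by 1.56-fold), against 6.87%. In WT 0 of 28 members were higher, against 3.01%, and 0 were lower, against 1.39%. All genes thus spread more in Foxo4_KO too, and the difference between the responses was not tested, since each is 1 pool against 1 pool. The Eno3 response, fitted at -0.61 (SE 0.36, limma adjusted p = 0.834), was 0.04 without the Foxo4_KO TNBS pool, -0.09 without the Foxo4_KO ethanol pool, -1.26 without the WT TNBS pool and -1.13 without the WT ethanol pool.

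**Figure D4:**
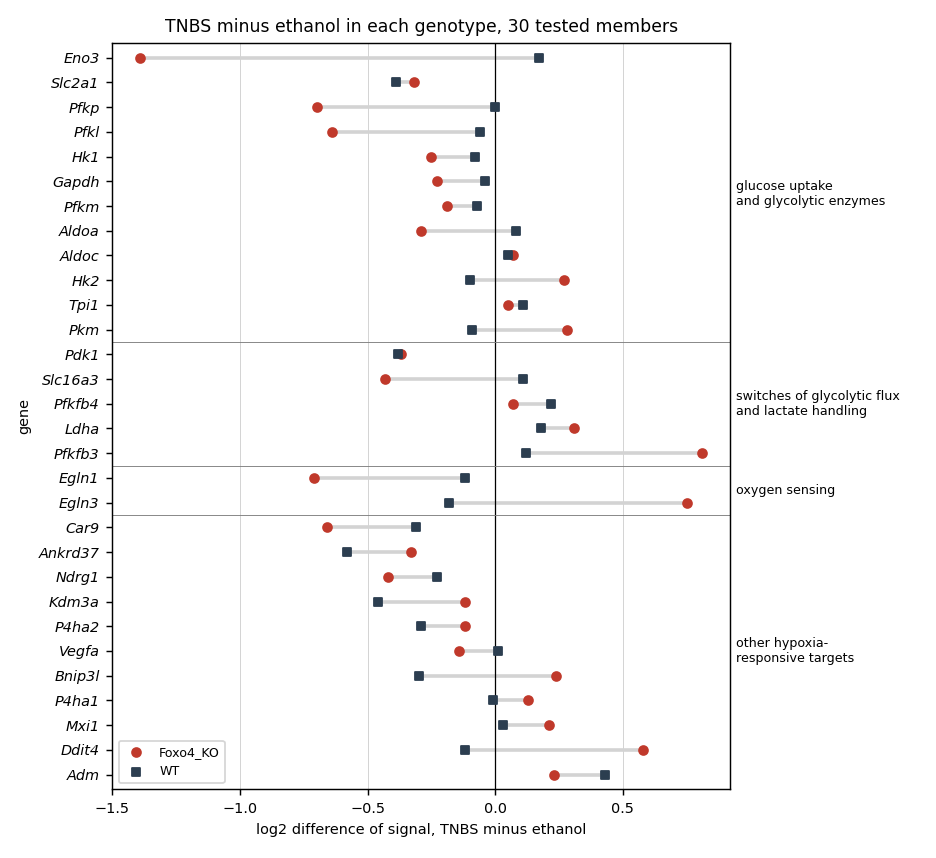
Log2 difference of signal, TNBS minus ethanol, for the 30 tested members in Foxo4_KO (circles) and WT (squares), joined by a grey line and grouped by role. WT points lie between -0.58 and 0.43, and Foxo4_KO points between -1.39 (Eno3) and 0.81 (Pfkfb3).

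The third comparison set the ethanol vehicle against untreated mucosa. Over both genotypes the median member stood at 0.04 (log2), against 0 for all genes, and 14 of 30 were below 0, against 49.1%. By genotype, 13 of 30 were below 0 in Foxo4_KO (median 0.03, against 49.8% of all genes) and 21 of 30 in WT (median -0.10, against 51.8%), a difference that was not tested. Limma called 0 of 30 members and 0.0% of all genes, and at an unadjusted p under 0.05 there were 0 members and 372 genes (4.16%). In both genotypes 6 members were higher after ethanol (20.0%, against 25.3% of all genes) and 11 were lower (36.7%, against 27.1%).

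Pfkfb3 again had the highest value, at 0.56 (SE 0.23, limma adjusted p = 0.999), with 6.21 in the ethanol and 5.59 in the untreated pool of Foxo4_KO mice and 6.27 and 5.76 in those of WT mice. It was not well above background in the untreated Foxo4_KO pool, so that pair gives at least 1.3-fold higher. Mxi1 had the lowest, at -0.45 (SE 0.19), and Ankrd37 stood at -0.34 (SE 0.16). Ankrd37 was thus in descending order from untreated through ethanol to TNBS in each genotype, although no step passed the test. P4ha2 was fitted at 0.30 (SE 0.20) and Ddit4 at 0.26 (SE 0.33). Without the untreated Foxo4_KO pool the value was 0.05 for P4ha2, -0.28 for Ddit4, 0.34 for Pfkfb3 and -0.68 for Mxi1, and without the untreated WT pool it was 0.56 for P4ha2, 0.80 for Ddit4, 0.79 for Pfkfb3 and -0.22 for Mxi1.

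By pairs, 2 of 28 members were at least 1.5-fold higher with ethanol in Foxo4_KO (Egln1 by 1.51-fold, and Pfkfb3), against 5.63% of all genes. Pfkfb3 is counted with its dim untreated value as measured, while its lower bound was 1.3-fold. In this pair 0 members were lower, against 2.37%. In WT 0 of 29 were higher, against 3.31%, and 1 was lower (Mxi1 by 1.56-fold), against 4.11%. Xist, a transcript of female cells, stood at 5.56 and 5.64 (log2) in the Foxo4_KO and WT ethanol pools and at 10.36 and 9.85 in the untreated pools, and its part in this comparison cannot be told apart from that of ethanol. In the TNBS pools Xist was 7.51 in Foxo4_KO and 5.51 in WT.

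Markers of other cells also moved between the paired pools. Smooth muscle genes, 8 of 10 tested, averaged 7.45, 10 and 9.58 (log2) in the Foxo4_KO and 7.41, 7.49 and 8.55 in the WT pools (untreated, ethanol, TNBS). Markers of red blood cells, 5 of 7 tested, averaged 9.06, 9.10 and 10.37 in Foxo4_KO and 9.89, 7.87 and 9.21 in WT. In the untreated pair 25 of 30 members were lower in Foxo4_KO, against 55.8% of all genes. There the median marker of smooth muscle differed by 0.03, of skeletal muscle by -0.15 and of neutrophils by -0.04, while that of B and plasma cells differed by 1.29, of T and NK cells by 0.71 and of red blood cells by -0.79. What part these cells have in the members' values was not tested.

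Genes of the same pathways outside the set gave no call either. Of 38 other genes of glycolysis and gluconeogenesis 25 were tested, with 0 called in any comparison and a median of -0.04 for genotype. The largest differences were those of Slc2a3, the glucose transporter of neurons and leukocytes, at 0.91 (SE 0.40), of neuronal Eno2 at 0.62 (SE 0.27) and of the liver-type pyruvate kinase Pklr at -0.46 (SE 0.14, limma adjusted p = 0.332). Slc2a3 was above background on 3 arrays and Eno2 on 2. Slc2a3 read 7.78 in the Foxo4_KO TNBS pool and between 5.32 and 5.74 in the other 5 pools. With TNBS Pdk4, another kinase of pyruvate dehydrogenase, stood at -1.09 (SE 0.32, adjusted p = 0.771), at 6.29 and 8.01 in the TNBS and ethanol pools of Foxo4_KO mice and 6.51 and 6.98 in those of WT mice.

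Of 18 other components of the HIF pathway 11 were tested, with 0 called and a median of -0.12 for genotype. Hif3a, an alpha subunit that can restrain the others, had 6.09, 6.02 and 6.92 in the Foxo4_KO pools, against 7.08, 7.60 and 6.70 in the WT pools, fitted at -0.78 (SE 0.33, limma adjusted p = 0.507). It was lower in the untreated and ethanol pairs but not after TNBS. Arnt, the constant partner of the alpha subunits, was fitted at -0.30 (SE 0.15), and Egln2 and Hif1an, the remaining oxygen sensors, at -0.15 and -0.13.

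Of 42 other hypoxia-responsive genes 29 were tested, with 0 called and medians of 0 for genotype, 0.11 for TNBS and 0.15 for ethanol. Lox, which crosslinks collagen, had 5.52, 6.40 and 7.45 in the Foxo4_KO pools, against 5.13, 5.20 and 6.37 in the WT pools, fitted at 0.89 for genotype (SE 0.19, limma adjusted p = 0.198) and 1.11 for TNBS (SE 0.23, adjusted p = 0.528). Lox was above background on 3 arrays. The chemokine receptor Cxcr4 was fitted at 0.68 for genotype (SE 0.13, adjusted p = 0.153). Next in size for genotype were Flt1 at 0.64 (SE 0.31), Angpt2 at 0.57 (SE 0.22, above background on 1 array) and Tfrc at -0.44 (SE 0.16). Hilpda, a lipid droplet protein induced by hypoxia, was higher with ethanol by 0.95 (SE 0.16, adjusted p = 0.701) and stood at -0.41 for genotype, lower in Foxo4_KO under each treatment with 5.76, 6.80 and 6.32 against 6.33, 7.19 and 6.58. The iron carrier Trf stood at 0.89 with ethanol (SE 0.15, adjusted p = 0.701) and at -0.42 for genotype.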

How the data were processed

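Colonic mucosa was profiled on Illumina arrays in 6 pools of 5 mice. The deposited unnormalized table held the bead signal of each array as an intensity with no background subtraction, and beside it a detection score named p-value per the file headers. That score rose with signal (rank correlation at least 0.997), so 1 minus it served as p. A second deposited table held intensity that the authors had quantile normalized, with probe names; its software is not stated in the labels. Both were joined by their profiles over 6 arrays, at a distance of at most 0.05 (log2), with any other match 2 or more times farther away. This joined 46595 of 46632 probes, and the Entrez number was the same in both tables for 7962 of 8603 targets that have one, against 0 after shuffling.

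Signals were background corrected, quantile normalized and log2-transformed by limma's neqc (limma 3.58.1 under R 4.3.3, offset 16). A gene was tested where a probe with 1 symbol had detection p under 0.01 on at least 1 array, and its brightest such probe was used (2217 genes had several). Levels are log2 signals and are not compared between genes. Limma was fitted over all 8948 genes with treatment and genotype as additive terms (2 residual and 3.84 prior degrees of freedom), two-sided, with Benjamini-Hochberg adjustment over all genes and a threshold of 0.05. The other treatment pairs serve as replicates of the genotype difference, so responses that differ between genotypes enter the error. Single pools were compared by fold, 1.5 or more, among genes above background in at least 1 of them. Where the dimmer pool was not well above background, the fold is a lower bound.

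A simulation shifted 200 of 8948 genes, with recovery obtained for shifts of 1 and 3 (log2) only. The genotype contrast found 96.1% of the shifts of 1, and TNBS minus ethanol found 83.5%. These shares do not cover the members, whose fitted differences were smaller, at most -0.68 for genotype and -0.61 for TNBS minus ethanol. Whether differences of that size would be called was not tested. Members, lists and tests were chosen with earlier results of these data known. Every measured member may be named, with fold and SE for the 5 largest per contrast and those 1.5-fold apart per pair. Alternatives were median scaling, the authors' values, an offset of 50, other filters, the mean of probes, another variance prior, a 2-fold threshold and leaving out each pool. Promoters came from RefSeq (GRCm38.p6). Tables were made in Python 3.11.15 with pandas 2.3.3 and numpy 2.4.6, the join with scipy 1.17.1, and plots with matplotlib 3.10.9.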

Additional observations from a re-analysis of the deposited data

How the results depend on the processing

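No paired analysis was possible because each group holds 1 pool, so no replicate number pairs samples; the limma fit sets genotypes against each other within treatments through its treatment term. Limma called 0 members in each comparison under all 13 alternatives, and 188 of 190 values of named members kept their direction. The exceptions were Eno3 for TNBS minus ethanol, at 0.04 without the Foxo4_KO TNBS pool (range -1.26 to 0.04 leaving out 1 pool), and Ddit4 for ethanol minus untreated, at -0.28 without the untreated Foxo4_KO pool (range -0.28 to 0.80). Median scaling put the members' median at -0.05 for genotype (all genes 0.09) and 0.07 for TNBS minus ethanol (all genes 0.18). Leaving out 1 pool at a time gave medians of -0.16 to -0.13 for genotype, -0.17 to -0.07 for TNBS minus ethanol and -0.09 to 0.05 for ethanol minus untreated. Over all genes, calls for genotype were 12 as reported, 124 with median scaling, 31 with a trended and robust prior, 23 with an offset of 50, 1 with no detection filter and 0 without any 1 pool. For TNBS minus ethanol they were 16 as reported, 43 with median scaling, 4 among genes detected on all 6 arrays, 0 with no filter, and 0 without either TNBS pool, and for ethanol minus untreated 3 with median scaling.

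Members at least 1.5-fold apart in the untreated genotype pair (4 as reported) numbered 7 with median scaling, 1 in the authors' values, 0 with an offset of 50, 2 of those detected on all 6 arrays and 1 at 2-fold. In the ethanol genotype pair (2) they were 1 with median scaling, 1 with the mean of probes and 0 at 2-fold. In the TNBS genotype pair (4) they were 6 with median scaling and 1 at 2-fold. In that pair they were 2 in the authors' values, with an offset of 50, detected on all arrays or with the mean of probes. For TNBS minus ethanol in Foxo4_KO (7) they were 4 in the authors' values and 1 at 2-fold. For ethanol minus untreated in Foxo4_KO (2) they were 0 in the authors' values, with an offset of 50 or at 2-fold, and 1 detected on all arrays, and in WT (1) they were 0 in the authors' values, with an offset of 50 or at 2-fold. The cause of these shifts was not tested. The number of arrays limits precision, and Ddit4, Adm, P4ha2, Slc16a3 and Pfkfb3 were not above background on all 6.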
